A study of Mus musculus with 8 samples.

Results

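Genes for neurotransmitter receptors, synaptic vesicle, adhesion and scaffold proteins, and the cytoskeletal, RNA-binding and surface proteins used as neuron markers were compared between cultured Spp1 knockout and wild-type mouse astrocytes. Members were found by gene name alone, with no measured value: the glutamate, GABA, glycine, acetylcholine, serotonin, dopamine and adrenergic receptor families, the synaptotagmins, synapsins, Sv2 proteins, complexins and Snap25, the neurexins, neuroligins, Shank and Dlgap scaffolds, the Elavl proteins, the stathmins and neurofilaments, and Tubb3, Map2, Gap43 and Thy1. The name rule found 54 of the 3624 genes in the authors' deposited table, which lists changed genes only. The same rule finds 159 protein-coding genes in the GENCODE M21 annotation, so 34.0% of the named families were listed, against a background of 16.1% for all annotated protein-coding genes. A family gene outside the table may have changed by less than the authors' limits or may not have been tested, so its absence was not read as no change.

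Retinas and optic nerves of mice at postnatal days 1 to 3 gave the astrocytes, which were cultured in DMEM/F12 with 10% fetal bovine serum before total RNA was sequenced. The wild-type group held 4 samples of strain C57BL/6, and the knockout group held 4 Spp1-/- samples of strain B6.129S6(Cg)-Spp1tm1Blh/J. Spp1 encodes osteopontin, a secreted matrix phosphoprotein and cytokine, and neither group received a treatment that the labels name. Whether the samples of 1 group came from separate cultures or animals is not in the labels, and neither is the part of Spp1 that was deleted. The authors' p-values therefore rest on the spread among these 8 samples alone, and that spread may be technical.

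The table gives 1 comparison and 0 columns of per-sample values, so the depth and the value of each sample are unknown. Each gene carries the authors' mean normalized count over all samples, log2 fold change, standard error and adjusted p-value. The table states no direction, and fold changes were taken as knockout relative to wild type, since Spp1 is at -5.90 (standard error 0.11) in the authors' deposited table. The level in each group, called the implied mean below, was worked out from the deposited mean count and fold change with the groups taken as equal in size. Strain and genotype cannot be told apart in this design. Sex is not given, and 4 Y-linked genes (Ddx3y, Eif2s3y, Uty and Kdm5d) are at log2 fold changes of 5.91 or more in the authors' deposited table, so sex and genotype cannot be told apart either.

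Neurons pass signals by releasing transmitter from vesicles that synaptotagmins, SNARE proteins and complexins drive to fuse with the membrane, and receptors on the next cell answer either as ion channels or through G proteins. Neurexins and neuroligins join the 2 sides, and Shank and Dlgap proteins anchor the receptors. Many of these genes are also used by glia: astrocytes carry glutamate, GABA, serotonin and adrenergic receptors, through which they sense neuronal activity, and express neurexins and neuroligins. A gene name from this set therefore does not by itself mark a neuron.

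Of the 54 members 43 were lower and 11 higher in the knockout, so 79.6% of the members were lower against a background of 45.1% lower among all listed genes (54.9% were higher). The median log2 fold change was -1.32 among the members and 0.66 among all listed genes. No listed change is smaller than 0.58 in size, so with slightly more genes higher than lower the median of all listed genes lies close to that limit. It is not the size of a typical change: without its sign, the median change was 1.55 among the members and 1.14 among all listed genes. A change of 1 or more on the log2 scale, in either direction, was seen in 40 members, 33 of them lower and 7 higher, and the background for that size was 58% of all listed genes. The 28 receptor genes (22 lower, 6 higher) and the other 26 members (21 lower, 5 higher) had medians of -1.40 and -1.22. A mean that weights each member by the precision of its fold change was -0.66, closer to 0 than the median. Since the cultures were sequenced in bulk, fewer cells of a type and less RNA per cell cannot be told apart.

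Promoter sequences are shown for the 3 members that hold a near match to RE1, the binding element of REST, a repressor that keeps many neuronal genes silent in non-neuronal cells. The search took the inner letters of the element's left part, AGCACC, and, after any 2 bases, those of its right part, GGACAG, on both strands, with at most 1 mismatch, in the 250 bases before and 50 bases after each RefSeq start site (GRCm38.p6). Of the 54 members 30 were matched to a promoter sequence. An exact match was found for 1 of them, Gria2, and a match with 1 mismatch for Syn1 and for the downstream start site of Gabrb1. Over all 27025 genes with a promoter sequence, 16 (0.0592%) held an exact match and 111 (0.411%) a match with at most 1 mismatch. Gria2 and Syn1 were lower and Gabrb1 was higher in the knockout, so the 3 genes did not share a direction. A match describes letters only, and no binding was measured here. Each sequence below is the 250 bases before the start site, 5′ to 3′ on the strand of the gene, with the match in capitals.

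Gria2, chr3:80802836-80803085, minus strand, exact match on the opposite strand: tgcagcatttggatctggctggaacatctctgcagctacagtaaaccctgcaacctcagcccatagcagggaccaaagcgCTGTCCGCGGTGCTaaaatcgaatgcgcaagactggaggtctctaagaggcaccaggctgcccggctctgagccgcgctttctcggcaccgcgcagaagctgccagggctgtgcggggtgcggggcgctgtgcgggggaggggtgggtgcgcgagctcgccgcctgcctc

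Syn1, chrX:20920919-20921168, minus strand, 1 mismatch, match on the same strand: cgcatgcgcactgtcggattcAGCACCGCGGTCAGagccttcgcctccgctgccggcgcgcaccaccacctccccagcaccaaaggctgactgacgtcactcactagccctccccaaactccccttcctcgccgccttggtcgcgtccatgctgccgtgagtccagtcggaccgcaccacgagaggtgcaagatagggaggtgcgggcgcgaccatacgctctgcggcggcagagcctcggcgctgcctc

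Gabrb1, chr5:71699682-71699931, plus strand, 1 mismatch, match on the same strand: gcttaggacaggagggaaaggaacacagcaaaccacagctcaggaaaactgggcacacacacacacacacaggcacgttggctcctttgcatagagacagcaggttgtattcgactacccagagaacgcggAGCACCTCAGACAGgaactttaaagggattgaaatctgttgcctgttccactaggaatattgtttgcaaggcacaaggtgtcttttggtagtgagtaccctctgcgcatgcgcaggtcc

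Ionotropic glutamate receptors, the channels of fast excitation, had 8 listed members of 19 annotated, 6 lower and 2 higher. The AMPA receptor genes went in opposite directions. Gria1 (chromosome 11, 57011387 to 57330244, plus strand, GRCm38), which encodes the GluA1 subunit, had an implied mean of 1459.5 in wild type and 5662 in the knockout. Its log2 fold change in the authors' deposited table was 1.96 (standard error 0.13, adjusted p = 8.75e-46), a 3.88-fold rise (95% interval 3.23 to 4.66). Gria2 (chromosome 3, 80681450 to 80802835, minus strand), whose edited subunit makes AMPA receptors nearly impermeable to calcium, fell from an implied 1079.7 to 363. The deposited log2 fold change of Gria2 was -1.57 (standard error 0.27, adjusted p = 8.66e-08), a 2.98-fold lower level (2.06 to 4.30). Gria4 (chromosome 9, 4417896 to 4796234, minus strand) fell by 1.42 (0.18) in the authors' deposited table, from an implied 901 to 336.

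Levels of the listed AMPA receptor genes were set side by side per kilobase of exon. Here and below, that length is the union of all annotated exons of a gene: 6043 bases for Gria1, 15548 for Gria2 and 6305 for Gria4. The transcripts made in these cultures are not known, so the shares and ratios depend on this choice. Without it, the implied means of Gria1 and Gria2 were 1459.5 and 1079.7 in wild type, and 5662 and 363 in the knockout. Gria1 made up 53.2% of the summed implied level per kilobase of Gria1, Gria2 and Gria4 in wild type and 92.4% in the knockout. The share of Gria2 went from 15.3% to 2.30%, and that of Gria4 from 31.5% to 5.26%. Gria3 is not listed and is not in these shares. The level of Gria1 per kilobase was 3.48 times that of Gria2 in wild type and 40.1 times in the knockout, a change whose own error was not computed because the values of single samples are not used here.

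The NMDA receptor genes also split. Grin2a (chromosome 16, 9567898 to 9995560, minus strand), which encodes the GluN2A subunit found at mature synapses, rose the most of all 54 members. Its implied mean went from 12.5 in wild type to 228 in the knockout, with a deposited log2 fold change of 4.19 (standard error 0.45, adjusted p = 2.6e-19), an 18.2-fold rise (9.93 to 33.3). Grin3a (chromosome 4, 49661611 to 49845744, minus strand), a subunit that lowers calcium flow through the receptor, fell by 1.89 (0.30) in the authors' deposited table, from an implied 323 to 87.4. Grin1, the subunit that every NMDA receptor needs, is not listed.

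The remaining ionotropic glutamate receptor genes were lower. The kainate receptor gene Grik3 fell by 1.53 (standard error 0.26) in the authors' deposited table and Grid1, a delta receptor that binds cerebellins at synapses, by 1.47 (0.25). Grik5, a kainate subunit that works only together with other kainate subunits, had the highest mean count of the lower receptor genes and the smallest fall of the ionotropic group. It fell by 0.71 (0.15) in the authors' deposited table, from an implied 3599 to 2199.

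Metabotropic glutamate receptors act through G proteins, and 4 of 8 were listed, 3 lower and 1 higher. Grm3 and Grm5 are the main metabotropic receptors of astrocytes, Grm5 in young ones. Grm3 (chromosome 5, 9485541 to 9725170, minus strand) rose by 1.24 (standard error 0.27, adjusted p = 3.14e-05) in the authors' deposited table, from an implied 46.2 to 109. Grm5 (chromosome 7, 87584168 to 88134907, plus strand) had a deposited log2 fold change of -2.48 (0.43, adjusted p = 1.28e-07), from an implied 231 to 41.5. Per kilobase of exon, Grm5 was 1.49 times the level of Grm3 in wild type and 0.113 times in the knockout, so their order turned. Grm8, an inhibitory receptor of axon terminals, stood at -2.27 (0.57) in the authors' deposited table, from an implied wild-type mean (30.7) below those of Grm3 and Grm5, per kilobase of exon as well.

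GABA-A receptors are the chloride channels of fast inhibition. Of 25 annotated GABA and glycine receptor genes 4 (16%) were listed, the same as the background of 16.1%, with 3 lower and 1 higher. The 4 listed genes are all GABA-A receptor genes and lie together in 1 cluster on chromosome 5. The span bounded by these listed genes, 70751047 to 72149037 (1.40 Mb), holds 5 protein-coding genes, of which only Cox7b2 is not listed. Gabrg1, which encodes a gamma subunit also found in glia, was the most changed. Its deposited log2 fold change was -2.55 (standard error 0.31, adjusted p = 4.59e-15), from an implied 294 to 50.3. The alpha subunit genes fell less: Gabra4 stood at -0.86 (0.20) and Gabra2 at -0.76 (0.30, adjusted p = 0.0391) in the authors' deposited table. Gabrb1, a beta subunit gene, rose by 0.94 (0.25, adjusted p = 0.00105) in the authors' deposited table, from an implied 1399.5 to 2688. Gabra4 and Gabrb1 share exon bases at their start sites and are read in opposite directions, and the sources used here do not say whether reads were counted by strand.

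Acetylcholine and dopamine receptor families had few listed genes. Of 21 annotated acetylcholine receptor genes 2 (9.52%) were listed, below the background of 16.1%, and both were lower. Chrna4, a nicotinic channel subunit, fell by 1.49 (standard error 0.35, adjusted p = 1.995e-04) in the authors' deposited table. Chrm2, a muscarinic receptor, stood at -1.38 (0.55, adjusted p = 0.0405), the largest adjusted p of the 54 members, at a mean count of 17.2 in the authors' deposited table. No dopamine receptor gene is listed, and no glycine or GABA-B receptor gene.

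Serotonin receptors had 5 listed genes, 4 lower and 1 higher. Of the 19 annotated serotonin and dopamine receptor genes together, these were 26.3%, against the background of 16.1%. Htr2b (chromosome 1, 86099026 to 86111970, minus strand), a Gq-coupled receptor known from heart valve fibroblasts and microglia, rose from an implied 26.1 to 388. Its deposited log2 fold change of 3.89 (standard error 0.24, adjusted p = 7.85e-55) is a 14.9-fold rise (10.7 to 20.7) and has the smallest adjusted p of the 54 members. Htr2a (chromosome 14, 74640840 to 74709494, plus strand), which couples to the same G protein, fell by 1.65 (0.35) in the authors' deposited table, from an implied 237 to 75.4. Per kilobase of exon, Htr2a was 3.44 times the level of Htr2b in wild type and 0.0738 times in the knockout.

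The other serotonin receptors were lower in the knockout. Htr1b, an inhibitory receptor of axon terminals, was at -2.77 (standard error 0.52) in the authors' deposited table, from an implied 114 to 16.7. Htr5b and Htr3a, the second a serotonin-gated ion channel, were at -4.41 (1.13) and -4.82 (1.61) in the authors' deposited table with mean counts of 8.99 and 2.87. Their fold changes depend on counts near 0 in the knockout, and the ends of their 95% intervals nearest to 0 were -2.19 and -1.67.

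Adrenergic receptors bind noradrenaline, a signal to which astrocytes respond with calcium and cyclic AMP. Of 9 annotated genes 5 were listed, 4 lower and 1 higher. Adrb1 (chromosome 19, 56722199 to 56733113, plus strand), a receptor that raises cyclic AMP, fell from an implied 1988 to 913. Its deposited log2 fold change was -1.12 with the smallest standard error of the 54 members, 0.119 (adjusted p = 2.33e-19). The alpha-1 receptors, which raise calcium, also went in opposite directions. Adra1a (chromosome 14, 66635251 to 66771168, plus strand) rose by 1.91 (0.26, adjusted p = 3.4e-12) in the authors' deposited table, from an implied 71.9 to 269.7, while Adra1b and Adra1d fell by 1.11 (0.20) and 1.17 (0.27). Per kilobase of exon, Adra1d was still 7.97 times the level of Adra1a in the knockout, against 67.3 times in wild type. The pairs compared here per kilobase were picked after their values were seen, and no test of their difference was made.

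**Figure D1:**
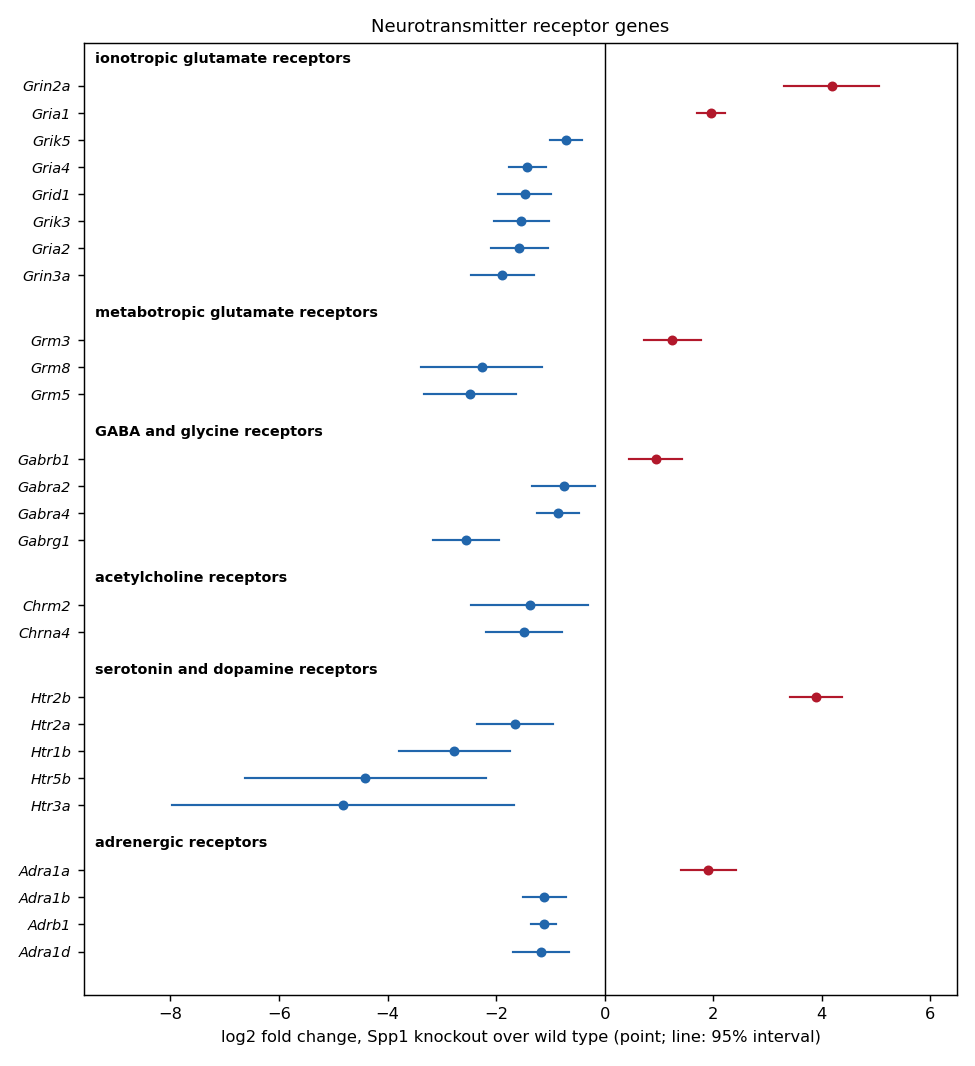
Authors' log2 fold changes (knockout over wild type, x axis) of the listed neurotransmitter receptor genes reported here, by receptor class, with 95% intervals as lines. The 6 higher genes (red) are spread over 5 of the 6 classes, 2 of them ionotropic glutamate receptors, and the acetylcholine receptors have none.

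Mean counts, which are not scaled by transcript length, ran from 2.87 for Htr3a to 8913 for Thy1 in the authors' deposited table, and 8 members had a mean count of at least 1000. A mean count below 20 was found for 12 of the 54 members, of which 11 were lower. Of all 3624 listed genes, 307 had such a count, and 47.9% of those were lower. Among the 13 members with a mean count of at least 500, 11 were lower and 2 (Gria1 and Gabrb1) were higher, with a median log2 fold change of -1.03 against 0.62 for all listed genes at that level. The implied knockout mean was below 5 for 8 members, and the size of their fold change is poorly fixed. That mean is worked out from the fold change, so a low value picks out lower genes and their direction is not a separate result.

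Synaptotagmins are membrane proteins of vesicles, several of which sense calcium, and they were the role with an even split: of 8 listed genes 4 were lower and 4 higher. Syt4, a synaptotagmin of dense-core vesicles that does not act as a fast calcium sensor, had the Wald statistic farthest from 0 among them. Its implied mean went from 417 in wild type to 21.4 in the knockout, with a deposited log2 fold change of -4.28 (standard error 0.30, adjusted p = 2.35e-44), a 19.5-fold lower level (13.0 to 29.3). Syt15 (chromosome 14, 34219595 to 34230420, plus strand), which lacks the calcium-binding residues, was at -2.47 (0.20, adjusted p = 1.7e-33) in the authors' deposited table, from an implied 277 to 49.8. Syt16 and Syt13 were at -4.24 (1.01) and -2.08 (0.65) in the authors' deposited table, both at mean counts below 20.

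Per kilobase of exon, the implied wild-type levels of the higher and lower synaptotagmins overlapped. The 4 higher genes lay below Syt4 (107) and Syt15 (53.6), but Syt5 (37.4) and Syt3 (13.6) lay above Syt13 (7.63) and Syt16 (2.63). These levels are worked out from the fold change, so they are not separate from its direction. Syt6 rose by 2.19 (standard error 0.48, adjusted p = 4.37e-05) in the authors' deposited table, from an implied 20.2 to 92.4. Syt8 rose by 3.25 (1.17, adjusted p = 0.0212) in the authors' deposited table, from an implied 2.67 to 25.4. Syt5 and Syt3, which bind calcium, rose by 0.91 (0.25) and 0.84 (0.32) in the authors' deposited table. Syt1, Syt2 and Syt9, the fast calcium sensors of transmitter release, are not listed.

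The other vesicle proteins had 2 listed genes of 11 (18.2%, near the background of 16.1%), both lower. Syn1, which tethers vesicles to the actin cytoskeleton, stood at -0.68 (standard error 0.18, adjusted p = 8.76e-04) in the authors' deposited table, from an implied 365 to 228. Cplx1, a complexin that binds the SNARE fusion machinery, stood at -3.73 (1.44, adjusted p = 0.0349) at a mean count of 3.75 in the authors' deposited table. Cplx1 is the member closest to Spp1, 4.10 Mb away on chromosome 5. Snap25, the Sv2 genes, Syn2 and Syn3 are not listed.

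Synaptic adhesion and scaffold genes had 5 listed members of 14, 4 lower and 1 higher. The deposited log2 fold change of Nlgn1, a postsynaptic adhesion protein that binds neurexins, was -0.60 (standard error 0.22, adjusted p = 0.0276), from an implied 593 to 391. The scaffold genes Dlgap2 and Dlgap3 were at -5.40 (1.45) and -3.68 (0.97) in the authors' deposited table, from implied wild-type means of 8.37 and 23.1. Shank2, a scaffold that links glutamate receptor complexes to actin, rose by 0.65 (0.23, adjusted p = 0.0193) in the authors' deposited table. Dlgap5, a mitotic spindle protein that shares only the family name, is not listed.

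Neuron markers of the set were all lower where listed, and the RNA-binding proteins changed the most. Elavl3 and Elavl4 encode HuC and HuD, which are made almost only in neurons. Elavl3 (chromosome 9, 22015005 to 22052023, minus strand) was at -2.85 (standard error 0.30, adjusted p = 6.04e-20) in the authors' deposited table, from an implied 201 to 28.0. Elavl4 (chromosome 4, 110203722 to 110351909, minus strand) was at -6.62 (1.16, adjusted p = 1.53e-07) in the authors' deposited table, the lowest fold change of the 54 members. Its implied mean went from 32.9 to 0.334, near 0, and the end of its 95% interval nearest to 0 was -4.35. Elavl1, which is made in most cell types, is not listed.

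Cytoskeletal, growth and surface genes had 9 listed members of 12, all lower, and their median was -1.18 on the log2 scale. Stathmins bind free tubulin, and Stmn1 to Stmn4 were all listed. Stmn4 was at -2.68 (standard error 0.71), Stmn3 at -1.18 (0.32), Stmn1, which dividing cells also make, at -0.82 (0.20) and Stmn2, a protein of growing axons, at -0.72 (0.14) in the authors' deposited table. The implied mean of Stmn1 went from 3256 to 1844 and that of Stmn2 from 3714 to 2263. Nefl, the light neurofilament gene, was at -2.41 (0.62) and Nefm, the middle one, at -0.86 (0.34, adjusted p = 0.0375) in the authors' deposited table. These neighbours on chromosome 14 share exon bases on opposite strands. Tubb3, the neuronal beta-tubulin, was at -1.43 (0.26) in the authors' deposited table, from an implied 1418 to 528. Thy1, found on the surface of retinal ganglion cells and of fibroblasts, went from an implied 12573 to 5253, and Gap43, a growth cone protein that Schwann cells also make, from 808 to 397.

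**Figure D2:**
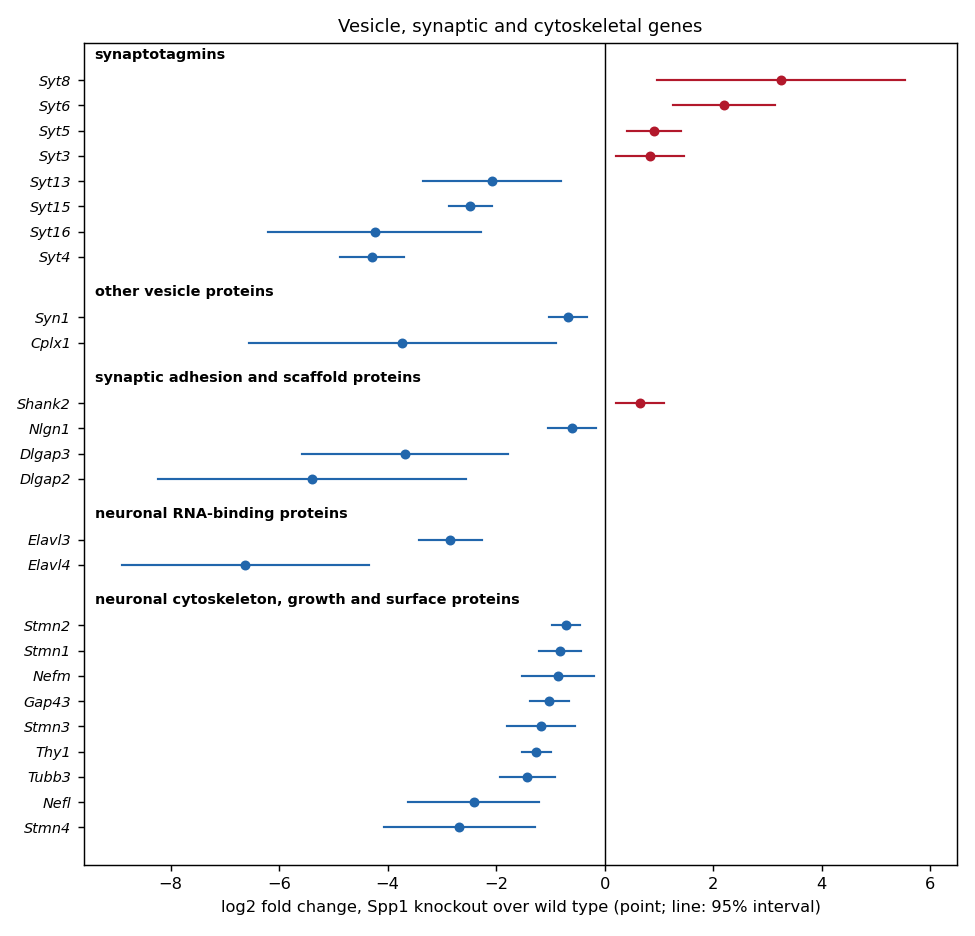
Authors' log2 fold changes (knockout over wild type, x axis) of the listed vesicle, adhesion, scaffold, RNA-binding and cytoskeletal genes reported here, with 95% intervals as lines. All 11 RNA-binding and cytoskeletal genes are on the lower side, while the synaptotagmins run from -4.28 for Syt4 to 3.25 for Syt8.

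Other synaptic genes, outside the name rule except for Grm6, were taken from 7 lists. The backgrounds are again 16.1% of annotated protein-coding genes listed and 45.1% of listed genes lower. The share listed was near that background for transmitter synthesis and vesicular loading (4 of 24 genes) and below it for retinal neuron markers (5 of 38 names). The retinal names include Grm6, which the name rule covers, and Rcvrn under another spelling (Recvrn) as well, so 38 overstates the genes outside the rule. Synaptic organisers and adhesion partners had 25 listed genes of 55, 23 of them lower and 2 higher (median -0.99 on the log2 scale). The lower genes included Slitrk1, Slitrk3, Slitrk4, Slitrk5 and Slitrk6 and Lrrtm1 to Lrrtm4, leucine-rich repeat proteins that organise synapses, with Slitrk6 at -4.28 (standard error 0.41) and Lrrtm3 at -5.07 (0.90) in the authors' deposited table. The thrombospondins Thbs1 and Thbs2 and the glypican Gpc4, which astrocytes secrete and which promote synapses, were lower too, at -1.37 (0.14), -0.90 (0.11) and -0.85 (0.11) in the authors' deposited table. The adhesion gene Nfasc, a neurofascin, was at -1.10 (0.12) in the authors' deposited table. The higher genes were Flrt1 and Flrt3, latrophilin ligands, at 1.28 (0.25) and 0.84 (0.17) in the authors' deposited table.

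By number of genes, the release machinery was mostly lower where listed. Of 48 active zone and SNARE genes 12 were lower and 4 higher, with a median of -1.19. At a mean count of at least 100 the split was 6 lower to 4 higher, and the median moved to -0.78. The summed implied mean of the listed genes rose in the knockout, from 3938 to 4667, so their total level did not fall. The dynamins Dnm3 and Dnm1, which cut vesicles from the membrane, were at -1.23 (standard error 0.23) and -1.23 (0.23), and Rims1, an active zone scaffold, at -3.08 (0.72) in the authors' deposited table. Stxbp2 and Rab3d, which serve secretion in blood and gland cells, rose by 1.70 (0.13) and 1.34 (0.22) in the authors' deposited table, as did Synj1 (0.73, 0.14) and Ppfia4 (1.49, 0.38). Postsynaptic scaffolds and receptor partners had 9 lower and 6 higher of 43. In the authors' deposited table Nptx1, a pentraxin that gathers AMPA receptors, was at -3.24 (0.29), the AMPA receptor partner Cacng4 at -1.31 (0.18), the kinase gene Camk2a at 1.48 (0.20) and Rapsn, which clusters nicotinic receptors, at 3.10 (0.38). The other higher genes of this list were Nsg2 (0.96, 0.16), Ric3 (0.81, 0.15), Musk (2.34, 0.63) and Dlg2 (1.38, 0.49) in the authors' deposited table.

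Of the transmitter handling genes, reuptake transporters had 7 listed genes of 20, 5 of them lower and 2 higher. The GABA transporter Slc6a11 fell by 1.49 (standard error 0.22) in the authors' deposited table, and the glutamate transporter Slc1a1 by 2.18 (0.30). Slc6a13, a GABA and taurine transporter of the meninges, rose by 6.73 (0.95) in the authors' deposited table, and the glutamine transporter Slc38a1 by 1.05 (0.16). Synthesis and vesicular loading had 2 lower (Tph2 and Ddc, enzymes of serotonin synthesis) and 2 higher (Maob and Hdc) of 24 genes. The astrocyte glutamate transporters Slc1a2 and Slc1a3 and the vesicular glutamate and GABA transporters are not listed.

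Neuronal cytoskeleton and growth cone genes outside the name rule had 13 lower and 3 higher of 37, with a median of -0.77. The neurofilament relative Ina was at -3.06 (standard error 0.63), Tubb4a at -1.23 (0.20) and the splicing regulator Celf4 at -1.27 (0.24), while the secretogranins Scg2 and Scg3 rose by 1.23 (0.14) and 1.08 (0.19) and Dclk1 by 0.65 (0.16), in the authors' deposited table. Retinal neuron markers had 5 listed genes of 38 names, 4 lower and 1 higher. In the authors' deposited table Prox1 was at -0.65 (standard error 0.19), Trpm1 at -1.70 (0.51) and Pou4f1, a factor of retinal ganglion cells, at -4.64 (1.72) with a mean count of 4.32, and Tfap2a was at 0.67 (0.26). The photoreceptor factor Crx is not listed.

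Markers of several cell types differed beside the members, and their part in these results was not tested. Listed macrophage and microglia markers were higher in 15 of 15 genes (16 on the list), with summed implied means of 19091 in wild type and 92874 in the knockout. Oligodendrocyte lineage markers were lower in 12 and higher in 1 of 14 genes, with sums of 27619.8 and 8552, and Schwann cell and neural crest markers in 11 and 1 of 14, with sums of 17266 and 6936. Müller glia and retinal progenitor markers were lower in 8 of 8 listed genes of 14 (6154 and 2634), and proliferation genes in 13 of 13 of 16. Fibroblast and meninges markers were higher in 6 of 6 of 11 (36533 and 81683), endothelial markers were higher in 2 and lower in 1 of 9, and pericyte and smooth muscle markers were lower in 3 of 3 of 10. The astrocyte list had 8 listed genes of 15, 5 higher and 3 lower. Its lower genes were S100b at -1.82 (standard error 0.15), Fabp7 at -1.23 (0.10) and Pax2 at -0.98 (0.26) in the authors' deposited table. Gfap and Aqp4 were among the higher ones, at 0.66 (0.16) and 1.15 (0.16), with mean counts over both groups of 75119 and 25052 in the authors' deposited table. These counts do not by themselves check the astrocyte label of each group. Summed over the members, the implied mean went from 44197 to 29478, and a large part of that fall came from Thy1 alone (12573 to 5253). Oligodendrocyte lineage and Schwann cell markers had medians of -2.46 and -2.03, farther from 0 than the members' -1.32, and no test of that difference was made.

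**Figure D3:**
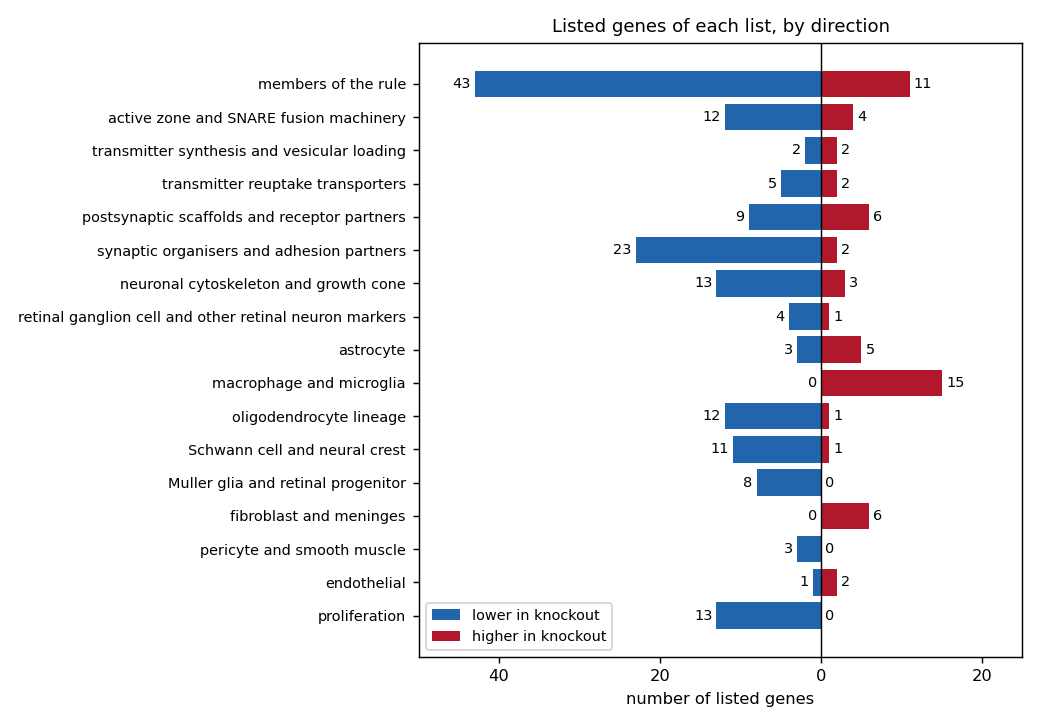
Number of listed genes lower (blue, left) and higher (red, right) in the knockout for the 54 members, the 7 synaptic lists and the 9 cell type lists. The members and the synaptic organisers lean left (43 to 11 and 23 to 2), as do the oligodendrocyte, Schwann cell and proliferation markers, and the macrophage (0 to 15) and fibroblast (0 to 6) markers lie on the right.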

How the data were processed

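Total RNA of 8 cultured astrocyte samples, 4 wild type and 4 Spp1 knockout, was sequenced. CASAVA 1.8, STAR 2.7 and DESeq2 1.30.1 and the build GRCm38 stand in the submitters' processing notes without a role. Which annotation and counting step were used is not given in those sources. Per the file headers, the deposited table holds for each gene the authors' mean normalized count, log2 fold change, its standard error, a Wald statistic (a score with no set limits) and the raw p-value with its adjusted p-value. It holds 0 columns of per-sample values. Only genes with an adjusted p-value up to 0.0499 and a log2 change of 0.58 or more in either direction are in it. Dividing adjusted by raw p-values puts the number of genes tested at about 16600.

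No test across samples could be made, so the authors' calls were counted as deposited. Implied means and 95% normal intervals (log2 fold change ± normal quantile × standard error) were computed with pandas 2.3.3 and scipy 1.17.1 and tested on simulated data. Coordinates and exon lengths came from GENCODE M21 (GRCm38), the build named in the notes, and promoter sequences from RefSeq. The 54 members and the 16 gene lists were chosen with earlier results of these data known. All members could be named, and from each list up to 4 genes ranked by adjusted p-value plus those against the list's direction. Gfap, Gpc4, the Slitrk genes other than Slitrk6, the Lrrtm genes, Dnm1, Rims1, Ina and the Y-linked genes were named after their values were seen. Some genes that the rule names are counted but not reported here by name.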

Additional observations from a re-analysis of the deposited data

How the results depend on the processing

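Under every alternative that was run, more members were lower than higher and the median log2 fold change stayed below 0. Among all listed genes under the same limits, the share lower ran from 38.5% (95% interval beyond 0.58) to 45.4% (mean count of at least 100). Each limit keeps a part of the same listed genes, so the kept direction is not separate support. The 11 higher members became 7 among changes of 1 or more on the log2 scale, 7 at a mean normalized count of at least 100, 6 at an adjusted p-value of at most 0.001, and 7 where the 95% interval had to lie beyond 0.58. The 43 lower members became 26 at a mean count of at least 100 and stayed within 1.5 times otherwise. The median of -1.32 moved to -1.77 with the interval rule, and the weighted mean was -0.66. A minimum mean count of 20, added after the data were seen, left 32 lower and 10 higher members. Medians of small groups turned with the count limits. Serotonin receptors went to 1.12 at a mean count of at least 100, synaptotagmins to 0.84 at 20, and transmitter synthesis and vesicular loading to 1.75 at 100 and at an adjusted p-value of at most 0.001, and to 1.56 at 20. These changes follow from fewer genes being kept. Of the other values for roles and synaptic lists under the alternatives, 275 stayed within 1.5 times (counts) or 1 median standard error (medians) and 95 moved further without a change of sign. No paired analysis was possible because the table holds no per-sample values, and for the same reason no sample could be left out. Depth limits the 12 members with mean counts below 20, whose standard errors reach 1.61.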

Other observations

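The members lie on 18 chromosomes, 1 of them on X (Syn1) and none on Y. Chromosome 5, which carries Spp1, holds 6 members, and apart from Cplx1 the nearest is Gabrb1, 32.5 Mb away. Of the 54 members 20 share exon bases with another annotated gene, 14 of them with a gene on the opposite strand, among them Htr2b with Psmd1 and Syn1 with Araf. Where reads were not counted by strand, part of the value of such a gene could belong to its neighbour, which was not tested. An E-box, CAGCTG, read the same on both strands, was found in the promoters of 6 of 30 members (20%), among them Elavl3, Elavl4 and Htr2b, and in 18.3% of all genes with a promoter sequence.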
